A study of Ictidomys tridecemlineatus with 31 samples.

Results

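The kidneys of 13-lined ground squirrels (Ictidomys tridecemlineatus) were compared between 2 warm states of the year, the interbout arousal of winter and summer activity. Animals were chosen by the hibernation state given for each, which made 9 of the 31 animals: 5 interbout aroused (IBA) animals, K1, K4, K7, K104 and K171, and 4 summer active (SA) animals, K138, K139, K140 and K141. A further SA animal, K137, was left out by the study as an outlier, as was K136, which was not analysed here. K137 entered no difference below and its values are given apart. IBA animals were sampled in winter a few hours into the rewarming that follows a bout of torpor, and SA animals were sampled in August while fattening. Both came from a captive breeding colony or a commercial supplier and wore temperature loggers. The sources used here name no genetic change or experimental drug treatment. Animals were anesthetized with isoflurane, bled and perfused before a fragment of frozen kidney was taken for poly(A) RNA sequencing. Their ages were not in the sources used here. The IBA animals were 3 females and 2 males, and the SA animals 2 females and 2 males. All SA libraries were made in the second of 2 sequencing experiments with the Nugen UniversalPlus kit, whereas K1, K4 and K7 were made in the first with the TruSeq stranded kit and K104 and K171 in the second. Season, fattening and the recent rewarming vary together in these groups and cannot be told apart.

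A hibernator spends the winter in bouts of torpor, with a near-freezing body and almost no urine, and interrupts them with short arousals in which blood flow, filtration and transcription return. The proximal tubule takes back most of the filtered salt, glucose, amino acids and phosphate. It is packed with mitochondria, burns mainly fatty acids, and also breaks down amino acids and foreign compounds, makes glucose and secretes organic acids. An IBA animal and an SA animal have about the same body temperature but opposite nutrition, since the winter animal lives on stored fat and the late summer animal is feeding.

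Values were regularized log2 levels, in which 1 unit is a factor of 2 on the transformed scale. Regularization narrows differences between animals, most in genes with few reads, so folds below are not plain expression ratios. Values are not scaled to transcript length, so levels are compared between animals and never between genes. The median level of an animal lay between 9.74 and 9.88 in all 31 animals. Differences are IBA minus SA from a limma fit with terms for state, sex and experiment over the 29 animals of the study's own analysis. Because of the terms for sex and experiment, a fitted difference is not simply the gap between the printed group means. A gene was called changed at an adjusted p (q) under 0.001 over all 12863 genes, the study's threshold, and a q under 0.05 is given as a second, wider reading.

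The labelled organ was checked first. All 6 proximal tubule markers, all 6 podocyte markers and all 6 loop of Henle markers were present. No marker of adrenal cortex or adrenal medulla was among the measured symbols. The authors kept only genes above a set level in most animals of a state, so adrenal tissue in a few fragments could go unseen. The mean level of the 6 proximal tubule markers was 15.16, 15.26, 15.32 and 14.97 in the SA animals and 14.60, 14.51, 13.89, 13.84 and 14.54 in K1, K4, K7, K104 and K171, with K137 at 14.29. Every IBA animal was therefore below every SA animal on this measure. The 6 markers differed by unequal amounts, and 4 of them were lower at a q under 0.05 by limma. Among these 4, Cubn differed by −0.96 ± 0.29 log2 units (q = 0.0213, with overlapping animals). Slc27a2 differed by −0.81 ± 0.25 (q = 0.0245). The sodium-glucose cotransporter Slc5a2 differed by −2.25 ± 0.49 (SE) log2 units (q = 0.00239) and the phosphate transporter Slc34a1 by −1.59 ± 0.36 (q = 0.00278), whereas the endocytic receptor Lrp2 differed by −0.46 ± 0.31 (q = 0.298) and the water channel Aqp1 by −0.18 ± 0.20 (q = 0.557), all from limma. Inner medulla markers, 7 of 8 measured, averaged 10.26 to 11.48 in SA, 12.40 in K104, 13.2 in K137 and 10.06 to 11.36 in the other IBA animals, so K104 and K137 were the highest. Podocyte markers averaged 11.55 to 11.92 in SA, 10.15 in K104 and 11.01 to 11.64 in the other IBA animals. In a tissue fragment, fewer cells of a type and less RNA per cell cannot be told apart, and the part of these marker differences in the results below was tested only by the refits that are named with them.

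**Figure D1:**
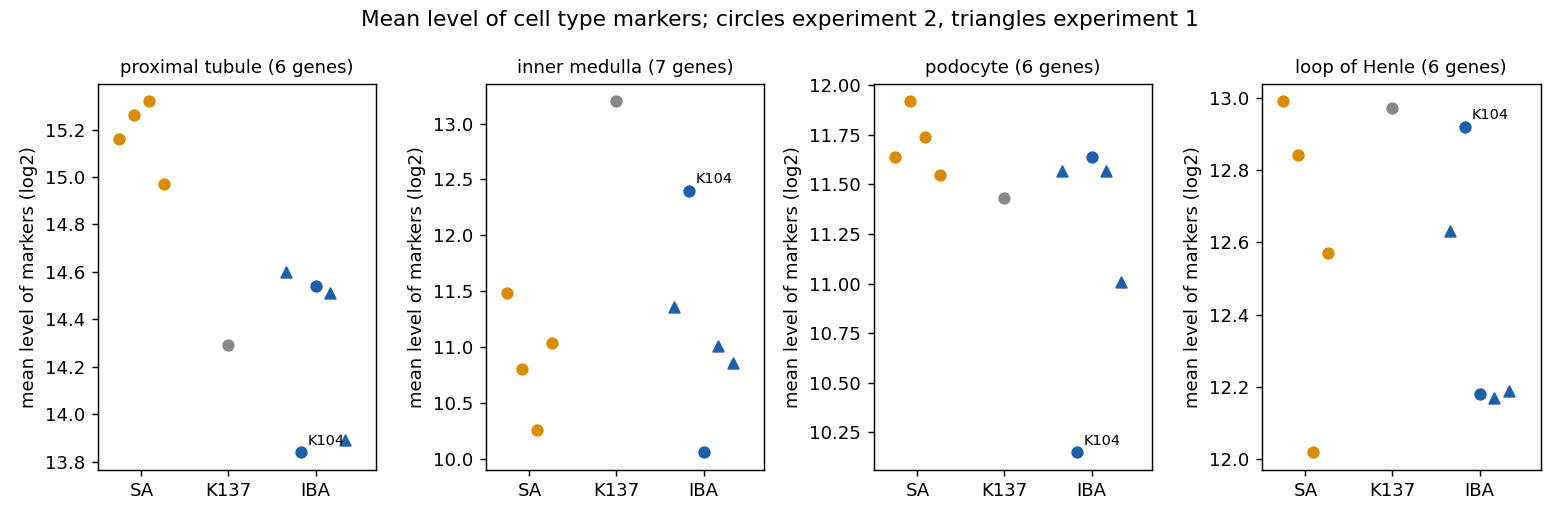
Mean regularized log2 level (vertical axis) of the markers of 4 kidney cell types in each animal: 4 SA animals (orange), K137 (grey) and 5 IBA animals (blue), with circles for experiment 2 and triangles for experiment 1. The proximal tubule means of SA (14.97 to 15.32) and IBA (13.84 to 14.60) do not overlap, and K104 is lowest for proximal tubule and podocyte markers and highest among IBA for inner medulla markers.

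Of 12863 genes, 405 differed between IBA and SA kidney (3.15%), 317 of them lower in IBA (2.46%) and 88 higher (0.684%). On the regularized scale, the decreases were also the larger ones. Among called genes, 110 fell at least 2-fold and 16 at least 4-fold, whereas 6 rose at least 2-fold and 1 at least 4-fold. The median difference was −0.881 log2 units for genes called lower and 0.529 for genes called higher, and 0.0293 over all genes. At a q under 0.05, the directions were nearly even in number, with 1605 genes lower (12.5%) and 1337 higher (10.4%). The individual animals of the 2 groups did not overlap for 311 of the 317 lower and 86 of the 88 higher genes, which selection by the same values makes likely; over all genes, 1233 (9.59%) were lower and 1179 (9.17%) higher in IBA without overlap.

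**Figure D2:**
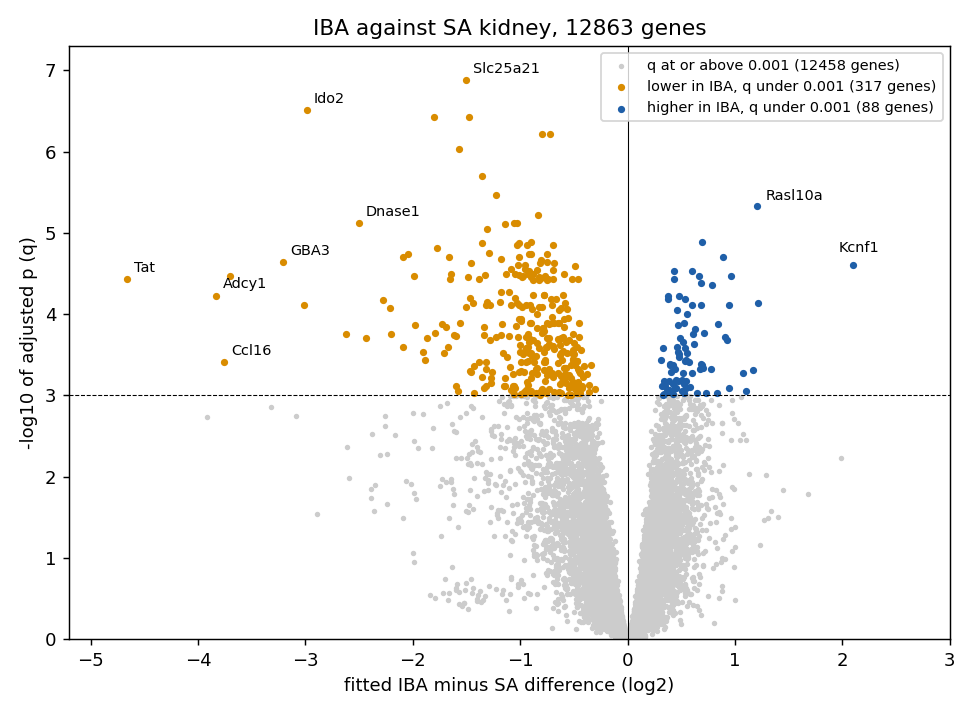
Each of 12863 genes by its fitted IBA minus SA difference in log2 units (horizontal axis) and the −log10 of its q (vertical axis), with the dashed line at a q of 0.001. The 317 genes called lower in IBA (orange) reach −4.66 (Tat), and the 88 called higher (blue) reach 2.10 (Kcnf1).

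The deepest decrease was in Tat, tyrosine aminotransferase, which starts the breakdown of tyrosine and is a classic target of glucocorticoids and glucagon in liver. Its level was 11.55, 13.09, 10.69 and 9.05 in SA animals K138, K139, K140 and K141, and 7.65, 7.37, 6.80, 6.52 and 6.28 in IBA animals K1, K4, K7, K104 and K171. SA animals spread widely without reaching the IBA range, and K141 was the lowest of them. Tat fell 25.3-fold in IBA (95% interval 9.96 to 64.4; −4.66 ± 0.65 log2 units, q = 3.69e-05). Levels of 7.83 in entrance into torpor (Ent), 7.16 in early arousal (EAr), 7.52 in late arousal (LAr) and 8.22 in spring dark (SpD) animals, given as group means, placed SA apart from every other state.

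Adcy1, an adenylyl cyclase that is switched on by calcium and calmodulin, fell next. It stood at 11.06, 10.08, 10.93 and 10.19 in SA and at 7.07, 7.5, 7.69, 6.40 and 6.64 in IBA, groups that did not overlap. The fall was 14.2-fold (95% interval 6.40 to 31.7, q = 5.91e-05). Hapln4, a link protein that ties hyaluronan to proteoglycans, was 10.91, 11.14, 12.13 and 10.79 in SA and 8.18, 8.69, 8.10, 6.56 and 8.0 in IBA, and fell 13.0-fold (6.27 to 27.1, q = 3.41e-05). The chemokine Ccl16 fell 13.6-fold (5.24 to 35.1, q = 0.00039), from 7.27, 8.67, 9.64 and 8.73 in SA to 4.91, 7.11, 4.55, 4.25 and 4.11 in IBA, where K4 at 7.11 came close to the lowest SA animal.

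Several of the other large decreases belong to enzymes and secreted proteins. GBA3, a cytosolic beta-glucosidase, fell 9.23-fold (5.07 to 16.8, q = 2.27e-05). Nox4, the NADPH oxidase that is abundant in renal tubules and releases hydrogen peroxide, fell 6.16-fold (3.35 to 11.3, q = 0.000174), with SA at 11.68 to 12.33 and IBA at 8.72 to 10.43. Dnase1, a secreted nuclease of high renal expression, had SA levels of 15.81, 15.74, 15.86 and 15.64, close together, and IBA levels of 14.12, 12.85, 13.41, 13.30 and 13.65. It fell 5.66-fold (3.74 to 8.58, q = 7.63e-06). The 12 largest decreases also held the plasma protein Itih4 (4.86-fold), the complement component C8a (4.64-fold), PPDPFL_like (8.07-fold), a gene named only by its similarity to a human sequence, and Ido2, which is described with its pathway.

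The 5 named genes with the smallest q were Slc25a21, Ido2, Folh1b, a GSTM2 model and Clybl, of which Ido2 (q = 3.11e-07) was also among the 12 largest decreases. Slc25a21 carries 2-oxodicarboxylates, made in lysine and tryptophan breakdown, into mitochondria. Its level was 9.51, 9.60, 9.31 and 9.50 in SA and 8.20, 8.09, 8.20, 7.91 and 8.15 in IBA, so animals of each group lay close together and far from the other group. It fell 2.84-fold (95% interval 2.38 to 3.40, q = 1.32e-07). Folh1b fell 2.79-fold (2.29 to 3.40, q = 3.73e-07). Clybl, a mitochondrial enzyme that clears citramalyl-CoA, fell 1.73-fold (1.55 to 1.94, q = 6.04e-07). A transcript model that contains GSTM2, a glutathione transferase with near copies among which reads can be split, was 15.14, 15.30, 14.90 and 15.03 in SA and 13.69, 13.56, 13.25, 13.36 and 13.53 in IBA, and its fall of 3.48-fold is uncertain as to which copy it describes (2.74 to 4.43, q = 3.73e-07).

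Kcnf1 was the sole gene to rise more than 4-fold. It encodes a potassium channel subunit that is electrically silent alone and modifies other channels. Its level was 5.94, 5.71, 6.41 and 6.14 in SA and 7.59, 8.77, 8.47, 7.61 and 8.48 in IBA. The rise was 4.27-fold (95% interval 2.88 to 6.36, q = 2.49e-05), and K137, at 5.96, kept to the SA level. Rasl10a, a small RAS-like GTPase, had the lowest q among increases, at 6.62, 6.54, 6.78 and 6.51 in SA and 7.69, 7.82, 7.91, 7.74 and 8.03 in IBA, a rise of 2.30-fold (1.90 to 2.79, q = 4.64e-06).

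The remaining large increases were about 2-fold. Cxcl16, a transmembrane chemokine that also binds oxidized lipoprotein, rose 2.32-fold (1.79 to 3.0, q = 7.27e-05). Tppp, which promotes tubulin assembly, rose 2.25-fold, and Bex5 rose 2.15-fold. Cdca7, a gene of proliferating cells, was 6.96 to 7.13 in SA and 7.52 to 8.36 in IBA and rose 2.11-fold (1.59 to 2.79, q = 0.000533). Acsl4, which activates arachidonic acid for membrane lipid, was 11.54, 11.37, 11.89 and 11.61 in SA and 12.48, 12.56, 12.78, 12.47 and 12.17 in IBA and rose 1.94-fold (1.61 to 2.35, q = 3.41e-05). Sat1, the rate-limiting enzyme of polyamine breakdown, rose 1.92-fold (q = 7.67e-05) and Cd63, a tetraspanin of late endosomes and exosomes, 1.85-fold (q = 1.96e-05). Fndc4 (1.93-fold), the secreted matrix protein Cthrc1 (1.90-fold) and Tspyl2 (1.87-fold) closed the 12 largest increases. Of the immune signaling genes, Irf3, the transcription factor of the antiviral interferon response, rose 1.52-fold (1.35 to 1.70, q = 2.92e-05).

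**Figure D3:**
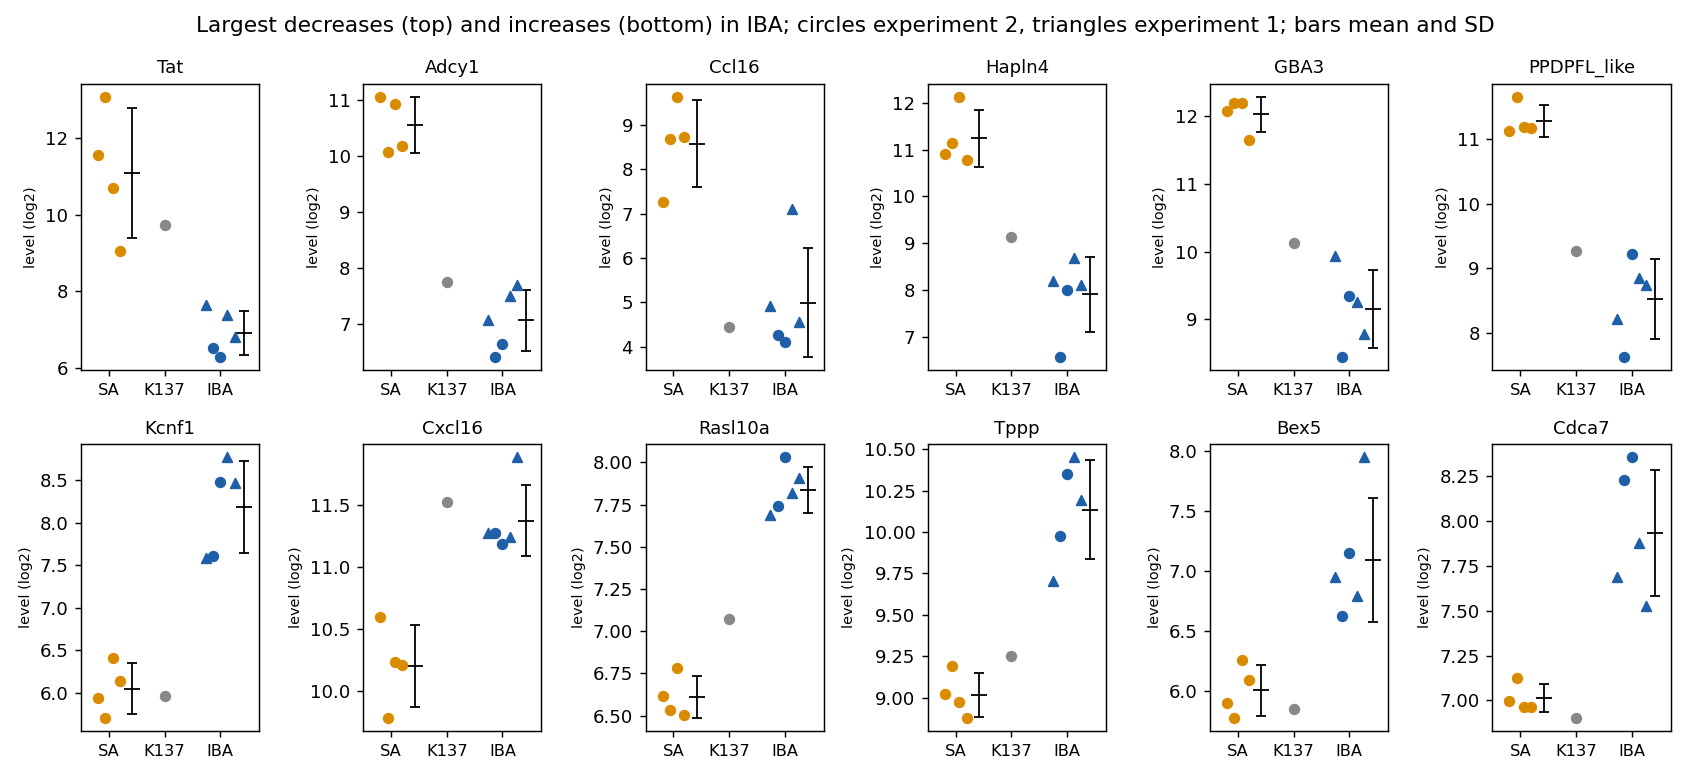
Regularized log2 levels (vertical axes) of the 6 genes with the largest decrease (top row) and the 6 with the largest increase (bottom row) in each SA animal (orange), in K137 (grey) and in each IBA animal (blue), with circles for experiment 2, triangles for experiment 1 and bars for mean and SD (n = 4 and 5). K137 lies at or near the IBA animals for Adcy1 (7.75), Ccl16 (4.45) and Cxcl16 (11.52) and with the SA animals for Kcnf1 (5.96), Bex5 (5.85) and Cdca7 (6.90).

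Amino acid breakdown was the most uniformly lowered of the pathways. Of 53 measured genes, 25 were called lower and 0 higher; at a q under 0.05, 40 were lower (75.5%, against 12.5% of all genes) and 0 higher. The median difference of the 53 was −0.732 log2 units, against 0.0293 over all genes. The called members covered each of the main routes. In tyrosine breakdown, Hgd, which opens the ring of homogentisate, fell 3.74-fold beside Tat (2.35 to 5.95, q = 0.000289). In tryptophan breakdown, Ido2, which opens the indole ring, fell 7.93-fold and Kmo, which hydroxylates kynurenine, 2.48-fold (q = 7.06e-05). Ido2 levels were 8.57, 9.13, 8.42 and 8.51 in SA and 5.87, 6.25, 5.81, 5.49 and 6.05 in IBA, with no overlap (95% interval of the fold 5.42 to 11.6, q = 3.11e-07).

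Part of the branched-chain route was called lower. Ivd, which oxidizes isovaleryl-CoA from leucine, was 13.04, 13.39, 13.06 and 13.09 in SA and 12.09, 12.15, 11.72, 11.87 and 12.09 in IBA, and fell 2.34-fold (1.94 to 2.84, q = 3.44e-06). Dbt, the core of the branched-chain keto acid dehydrogenase, fell 1.78-fold (1.55 to 2.04, q = 6.08e-06). Bckdhb, Acad8, Acadsb, Mccc1, Hibadh, Hibch, Pcca and Pccb of the same route fell as well, by 0.38 to 1.01 log2 units. Bckdha, Mccc2 and Auh had differences of −0.31, −0.62 and −0.37 log2 units without a call, and Bcat1 (0.88, q = 0.22), Bcat2 (−0.27, q = 0.32) and Aldh6a1 (−0.52, q = 0.137) did not pass a q of 0.05. Gpt, alanine aminotransferase, fell 2.08-fold (1.75 to 2.48, q = 7.63e-06), and Glud1, glutamate dehydrogenase, differed by −0.84 log2 units (q = 9.89e-05). Bckdk, the kinase that switches the branched-chain dehydrogenase off, was among the 88 genes called higher; it was singled out after its value was seen (0.44 log2 units, q = 0.000811).

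The count of calls moved with the animals and terms in the fit. Without K104, 13 of the 53 genes were called and their median was −0.696, and without K139, 16 were called; with the mean of the 6 proximal tubule markers as a further term, 3 were called and the median was −0.317; with Lrp2 and Aqp1 alone as that term, 18 were called and the median was −0.672. The last 2 refits were chosen after the data were seen, and the IBA and SA animals do not overlap on the marker mean. Ido2, Ivd and Dbt were the 3 genes called with all 6 markers in the model.

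Enzymes that handle foreign compounds, vitamins and amines fell with the amino acid genes. Of 27 measured genes of xenobiotic metabolism, 6 were called lower and 0 higher, 19 were lower at a q under 0.05 (70.4%), and the median difference was −0.77 log2 units. FMO1, a flavin monooxygenase, fell 2.80-fold (2.08 to 3.76, q = 3.51e-05). CYP27A1, the sterol 27-hydroxylase, fell 3.07-fold (2.11 to 4.47, q = 0.000179), and Aldh1a1, which makes retinoic acid, 3.65-fold (2.35 to 5.67, q = 0.000199). Xdh, xanthine oxidoreductase of purine breakdown, fell 3.70-fold, with SA at 11.49 to 12.19 and IBA at 9.8 to 11.15. Maoa, which oxidizes serotonin and other amines, was 11.66, 11.66, 11.86 and 12.05 in SA and 11.07, 11.26, 11.28, 10.76 and 11.04 in IBA, a fall of 1.94-fold (1.61 to 2.32, q = 2.82e-05). CYP24A1, which inactivates vitamin D, had a larger estimate of 8.51-fold lower, but its animals scattered more and it missed the call (3.35 to 21.6, q = 0.00178). With the proximal tubule markers in the model, 0 of the 27 genes were called, at a median of −0.472. Leaving out K104, K139 or K140 gave 3 calls each.

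Transporters of the proximal tubule were often lower in IBA but rarely passed the strict threshold. Of 48 measured, 3 were called lower and 0 higher, while 28 were lower at a q under 0.05 (58.3%) and 0 higher, at a median of −0.71 log2 units. The 3 called genes were Slc16a9, a carnitine and urate transporter, which fell 2.26-fold (1.72 to 2.98, q = 0.00018), Slc7a8, which exchanges neutral amino acids at the basolateral side, 2.99-fold (1.93 to 4.63, q = 0.000879), and Slc5a11, an inositol transporter, 1.76-fold (1.40 to 2.20, q = 0.000975). Slc7a8 was 14.34, 13.89, 14.56 and 14.46 in SA and 13.23, 13.32, 12.66, 12.36 and 13.20 in IBA. Slc6a19, the main apical neutral amino acid transporter, had an estimate of 4.0-fold lower (2.20 to 7.27, q = 0.00164). This list shares genes with the proximal tubule markers, and with those markers in the model its median was −0.0559 and 0 genes were called; without K104, 0 were called and the median was −0.616. The count was also 0 without K139 and 1 without K4, K7, K138 or K141.

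Of 38 respiratory chain and ATP synthase genes, 5 were called lower and 0 higher, 22 were lower at a q under 0.05 (57.9%), and the median was −0.333 log2 units. UQCRC2, a core subunit of complex III, was 13.77, 13.82, 13.92 and 13.73 in SA and 13.13, 13.32, 13.26, 13.13 and 13.39 in IBA and fell 1.54-fold (1.34 to 1.76, q = 8.32e-05). Ndufs1 of complex I fell 1.55-fold (1.34 to 1.80, q = 0.000205) and Sdhc of complex II 1.5-fold (1.29 to 1.74, q = 0.000544). Of 27 antioxidant enzymes and NRF2 targets, 2 were called lower, Sod2 (1.49-fold, q = 0.000463) and Prdx3 (1.49-fold, q = 0.000586) of the mitochondrial matrix. At a q under 0.05, 10 were lower (37%, against 12.5% of all genes). Another 2, Srxn1 and Txnip, were higher at that threshold (7.41%, against 10.4%), and the list median was −0.0854. The mitochondrial members Prdx5 (−0.07 log2 units, q = 0.815) and Txn2 (−0.13, q = 0.288) did not pass. The median of the respiratory list was −0.333 again with the proximal tubule markers in the model, although 0 genes were then called. Without K104 or K139, 1 respiratory gene was called, 2 without K140 or K141 and 3 without K4 or K138.

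Fatty acid oxidation was mixed, with 4 of 27 genes called lower and 0 called higher. At a q under 0.05, 10 were lower (37%, against 12.5% of all genes) and 2 higher (7.41%, against 10.4%). Acsl1, which activates long-chain fatty acids, fell 1.93-fold (1.62 to 2.32, q = 2.49e-05), and the enzymes Decr1 (1.71-fold), Etfa (1.54-fold) and Acadm (1.57-fold) fell inside the mitochondrion. Cpt1a, the gate through which fatty acids enter mitochondria, stood the other way, at 12.71, 12.64, 12.67 and 12.49 in SA and 13.54, 13.52, 12.97, 13.41 and 13.25 in IBA, an estimate of 1.72-fold higher (1.24 to 2.40, q = 0.0176) that missed the call. Hadha, a subunit of the trifunctional protein inside the mitochondrion, was the other gene higher at a q under 0.05 (0.37 log2 units, q = 0.0498), and Cpt2, which acts after Cpt1a in the same entry, was among the 10 lower (−0.34, q = 0.0369). Of 10 measured genes of ketone body metabolism, 2 were called lower, Bdh1 (1.95-fold, q = 0.000515) and Acat1 (1.63-fold, q = 0.000108). At a q under 0.05, 5 of the 10 were lower (50%) and 1 higher (10%). Leaving out K104, K139 or K140 gave 2 calls in fatty acid oxidation. In the ketone list there were 0 calls without K104 and 1 without K138, K139, K141 or K171. With the proximal tubule markers in the model, 0 genes of either list were called.

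**Figure D4:**
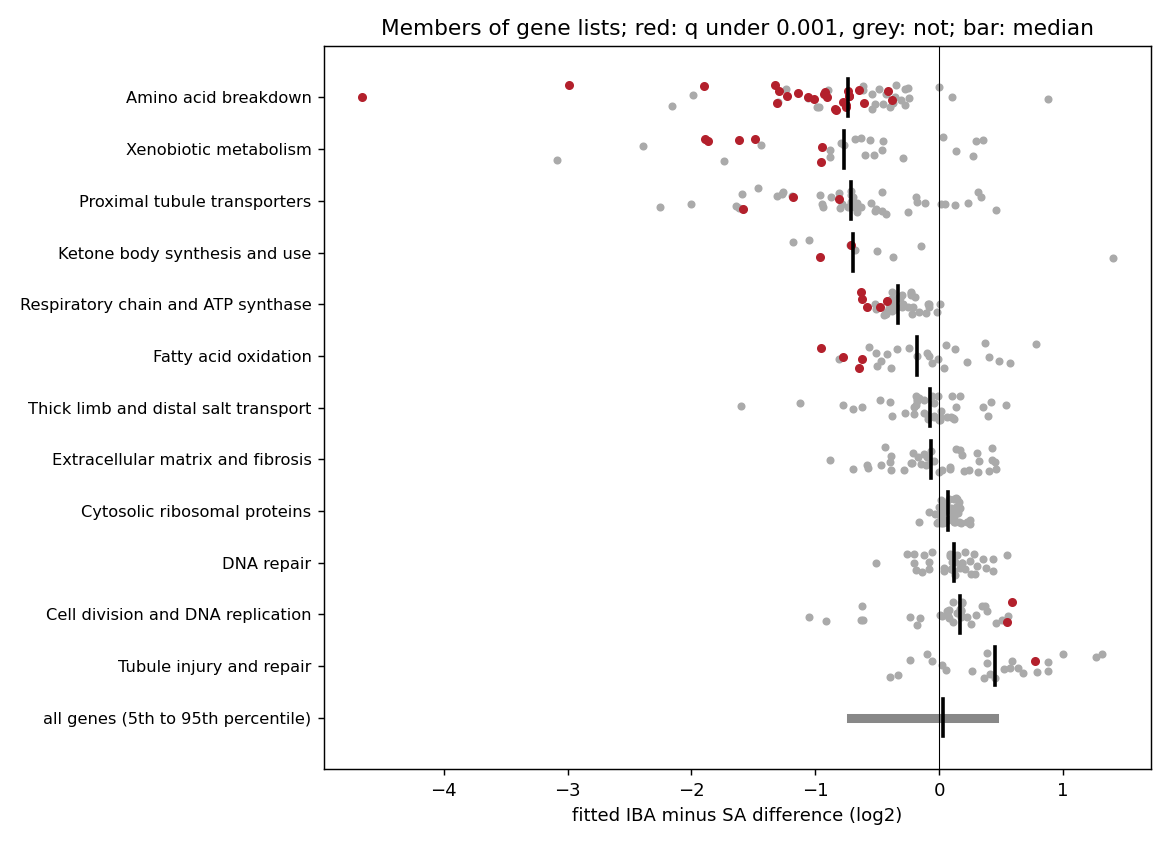
Fitted IBA minus SA difference in log2 units (horizontal axis) of every measured member of 12 gene lists, with members at a q under 0.001 in red, the others in grey and the list median as a black bar; the bottom row spans the 5th to 95th percentile of all 12863 genes around their median of 0.0293. Medians run from −0.77 for xenobiotic metabolism to 0.45 for tubule injury and repair, and cytosolic ribosomal proteins lie within −0.159 to 0.251.

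Increases were fewer, and no list held more than 2 of them. Of 35 genes of cell division and DNA replication, 2 were called higher and 0 lower. At a q under 0.05, 8 were higher (22.9%, against 10.4% of all genes) and 4 lower (11.4%, against 12.5%). Lig1, the ligase that joins Okazaki fragments, was 9.27, 9.11, 9.28 and 9.14 in SA and 9.60, 9.56, 9.72, 9.74 and 9.70 in IBA and rose 1.46-fold (1.30 to 1.65, q = 9.84e-05). Pole, the catalytic subunit of the leading-strand polymerase, rose 1.5-fold (1.28 to 1.76, q = 0.000781), and Mcm5 of the replicative helicase just missed the call at 1.47-fold (q = 0.00104). Leaving out any 1 animal other than K7 gave 1 call in this list and ended that of Pole, and with the proximal tubule markers in the model there were 0. The list as a whole did not move one way, since the cell cycle inhibitors Cdkn2c and Cdkn1a were among its 4 lower members. Of 36 DNA repair genes, 0 were called, at a median of 0.121. At a q under 0.05, 10 were higher (27.8%, against 10.4% of all genes) and 2 lower (5.56%, against 12.5%).

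Among 25 genes of tubule injury and repair, 1 was called higher, 7 were higher (28%, against 10.4% of all genes) and 1 lower (4%, against 12.5%) at a q under 0.05, and the median was 0.45 log2 units. With the proximal tubule markers in the model, 0 were called and the median was 0.059. The called gene was Lgals3, galectin-3, at 10.77, 10.66, 10.89 and 10.77 in SA and 11.22, 11.54, 12.12, 11.59 and 11.31 in IBA, a rise of 1.71-fold (1.40 to 2.09, q = 0.000469). Its call was lost without K104, K138, K139, K140 or K141, and with the proximal tubule markers in the model its difference was 0.32 log2 units (q = 0.0808). The simple-epithelium keratins Krt8 (1.60-fold, q = 0.00143) and Krt18 (1.84-fold, q = 0.00216) had higher estimates without a call. Other well known injury markers overlapped between the groups: Havcr1, KIM-1, was 6.73 to 7.72 in SA and 7.35 to 10.30 in IBA (q = 0.0326), and Lcn2, NGAL, was 9.16 to 11.02 in SA and 9.15 to 12.95 in IBA (q = 0.327). Vcam1, an adhesion molecule of failed repair, differed by −0.05 ± 0.37 log2 units (q = 0.935), with an interval of 0.615 to 1.75 for the SA level over the IBA level. None of 38 matrix and fibrosis genes passed a q of 0.05 in either direction, and none of 48 cytosolic ribosomal protein genes did.

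In the BCL-2 family and apoptosis list, 1 of 26 genes was called higher and 0 lower. At a q under 0.05, 5 were higher (19.2%, against 10.4% of all genes) and 1 lower (3.85%, against 12.5%). The called gene was Bcl2l11, BIM, which activates BAX and BAK at the mitochondrion. Its level was 9.49, 9.70, 9.52 and 9.48 in SA and 10.30, 10.12, 9.97, 10.15 and 10.06 in IBA, a rise of 1.55-fold (1.34 to 1.79, q = 0.000153). The effectors had smaller estimates, 1.30-fold higher for Bax (q = 0.00675, with overlapping animals) and 1.33-fold for Bak1 (q = 0.0225). Akt1, the survival kinase of insulin signaling, differed by little but evenly, at 1.30-fold higher (1.20 to 1.40, q = 6.6e-05).

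The 405 genes were then read in animals that belong to neither group, as the mean of the Ent, EAr and LAr groups minus SpD, over 15 and 5 animals. The first 3 are cold states of winter and SpD animals were warm in spring, so season and body temperature vary together in this difference. It came from the same fit as the IBA minus SA difference. The 2 therefore share the terms for sex and experiment and the estimate of spread, and are not independent. Of the 317 genes called lower in IBA, 212 (66.9%) were also lower in these winter animals, against 50% of all genes, and 17 (5.36%) were called lower, against 2.54% of all genes. Of the 88 genes called higher, 63 (71.6%) were also higher and 12 (13.6%) were called higher, against 1.73% of all genes. Sharing of direction was therefore above the share of all genes but most genes did not pass the test again. Kcnf1 rose by 1.88 log2 units (q = 2.45e-06) and Rasl10a by 0.90 (q = 2.45e-06) in the winter animals, and Acsl4 (0.63) and Cd63 (0.48) rose too. Ido2 and Aldh1a1 fell again, by 1.13 and 1.59 log2 units. Tat (−0.39, q = 0.593), Adcy1 (−0.42, q = 0.488) and Ccl16 (−0.04, q = 0.961) did not pass. Maoa went the other way, being called lower in IBA against SA and higher by 0.71 in the winter animals against SpD (q = 2.33e-05). One SpD animal, K130, stands far from its group; without it, 262 of the 317 lower genes and 68 of the 88 higher genes had the same direction as in IBA, with 14 and 7 called, against 6614 lower and 6249 higher and 89 and 39 called among all 12863 genes.

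**Figure D5:**
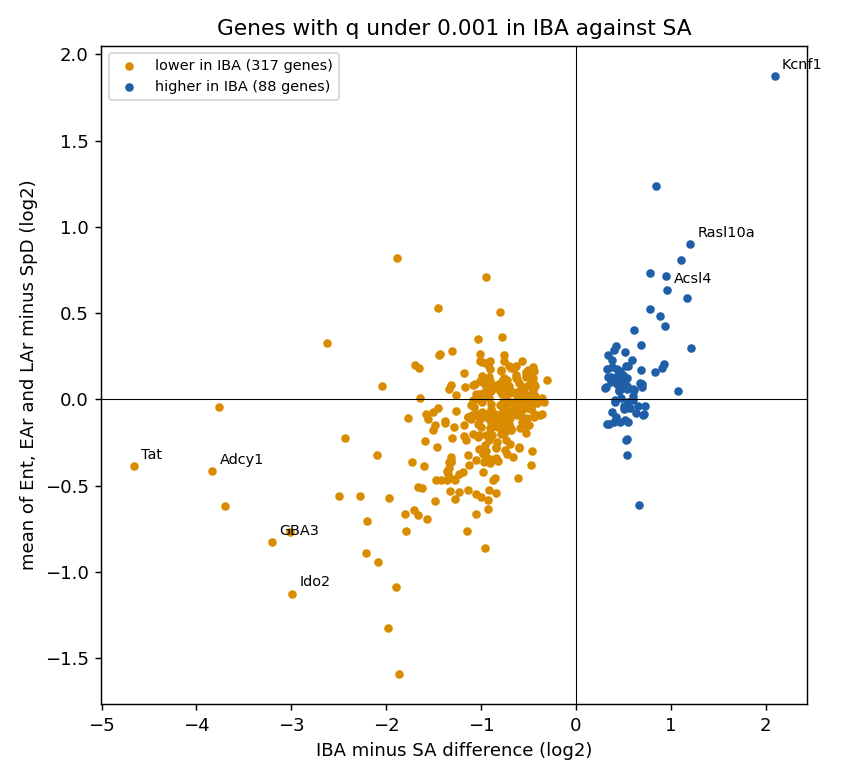
The 405 genes called between IBA and SA, by their IBA minus SA difference in log2 units (horizontal axis). The vertical axis gives the mean of Ent, EAr and LAr minus SpD, also in log2 units. The 2 axes compare different groups, but both come from the same fit with shared terms for sex and experiment. Kcnf1 and Rasl10a lie high on both axes, whereas Tat and Adcy1 lie far left and close to 0 on the vertical axis.

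The position of SpD between the 2 groups turned on K130. Fitted SpD levels lay nearer IBA than SA for 171 of the 317 lower genes (53.9%) and 36 of the 88 higher genes (40.9%), against 57.2% of all genes. Without K130, they lay nearer IBA for 96 lower genes (30.3%) and 32 higher genes (36.4%), against 51.0% of all genes. Ent animals lay nearer IBA for 261 lower genes (82.3%) and 63 higher genes (71.6%), against 55.0% of all genes. These positions use the IBA and SA levels that chose the genes and are a description.

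K137, the SA animal that took no part in the differences, did not look like the other SA animals. It lay on the IBA side of the midpoint between the groups for 255 of the 317 lower genes and 64 of the 88 higher genes, together 78.8%, against 61.2% of all genes. Over the 317 lower genes its mean level was 10.87, between SA at 11.47 to 11.59 and IBA at 10.48 to 10.71, and over the 88 higher genes 9.83, between SA at 9.37 to 9.48 and IBA at 9.95 to 10.04. By single genes, it fell within the SA range for 38, within the IBA range for 190 and outside both for 177. Its Adcy1 level of 7.75 and Dnase1 level of 13.65 were near IBA, whereas its Kcnf1 level of 5.96 and its Itih4 level of 9.55 were those of SA. Its proximal tubule and inner medulla marker means, 14.29 and 13.2, were also outside the range of the other SA animals, and their part in its position was not tested. With K137 in the fit, 73 genes were called, all of them among the 405, and with K137 and K113, the other animal left out, 49.

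The 405 genes had the same sign in females and in males and within experiment 2 alone. The same animals chose the genes, which makes this likely. Over all 12863 genes, 9834 had the same sign in both sexes and 11396 kept their sign within experiment 2. The difference between the sexes was itself tested: by limma, 0 genes passed a q of 0.05 and 289 had an unadjusted p under 0.05. Both IBA males were in experiment 1 and both IBA animals of experiment 2 were female, so sex and experiment are partly joined. The number of calls depended on the animals in the fit: with the 9 IBA and SA animals alone, where the spread and the terms for sex and experiment are all estimated anew, limma called 1 gene, Adcy1. It also rested on single animals, with 146 genes called without K104, 211 without K139, 245 without K138 and 251 without K140, and fell to 44 with the proximal tubule markers as a term.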

How the data were processed

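Kidney poly(A) RNA sequencing of 31 animals in 6 states was used here. The authors used cutadapt for trimming and HISAT2 to set aside reads of the mitochondrial genome, assigned the rest to transcripts of HiC_Itri_2 with Salmon, summed these by gene, filtered low genes, and applied a regularized log (log2) transformation and limma's batch correction for experiment. The deposited table holds these log2 values for 12863 genes, 1092 of them named by similarity to human or other sequences. It gives no counts, so depth is unknown and the study's DESeq2 test was not run; the number of animals limits precision.

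Differences were computed with limma 3.58.1 in R 4.3.3, with state, sex and experiment as terms, an intensity trend and Benjamini-Hochberg adjustment over all genes, in 29 animals (without K113 and K137). All 31 columns matched an animal by name. The batch correction narrows experiment differences, and the term for experiment removes what is left. The script was tested on simulated data. Labels do not say whether animals were littermates or otherwise related, and the p-values treat them as independent. The p-values set a difference against the spread within states, pooled over the 29 animals of 6 states.

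Named genes were, among genes with a symbol, a q under 0.001 and no overlap of animals, the 12 largest increases and 12 largest decreases and the 5 lowest q in each direction, the 4 lowest q of each list, markers, and genes the study names for damage. Of 32 lists with 1140 entries, 899 were matched by symbol. Members and lists were chosen with earlier results of these data known. A few genes that this rule names are not reported here. Promoter motifs and sequences were not analysed here. Figures were drawn with matplotlib 3.10.9 from the tables of these results.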

Additional observations from a re-analysis of the deposited data

Results flagged for a closer look

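Within each group, an animal was looked at again when its gap to the nearest other animal took up most of the range of its group, by Dixon's 95% criterion. This was done for the 30 genes with the largest differences or lowest q and for the proximal tubule, inner medulla and podocyte marker means, 66 groups in all, of which chance alone would mark about 1 in 20; 4 were marked. The chemokine Ccl16 was 7.11 in IBA animal K4, above the other IBA animals. PPDPFL_like was 11.66 in SA animal K139, above the other SA animals. The oxidase Nox4 was 11.68 in SA animal K141, below the other SA animals but above every IBA animal. The chemokine Cxcl16 was 11.88 in IBA animal K7, above the other IBA animals. Values are regularized log2 levels.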

How the results depend on the processing

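All 405 genes had the same direction in each of 23 refits in which they were tested (364 of them with a filter at a mean level of 8), but the number called moved. The refits reuse animals that chose the genes, which makes the shared direction likely. It was 49 with all 31 animals, 73 with K137 added, 133 within experiment 2, 1 with the IBA and SA animals alone (Adcy1), 1352 at a q under 0.01 and 2942 at a q under 0.05. Leaving out 1 animal gave 146 to 446 calls. The lowest counts were 146 without K104, 211 without K139, 245 without K138 and 251 without K140. Of 65 named genes that were called, 34 were still called without K104, 20 with all 31 animals and 9 with the proximal tubule marker mean as a term. With that term, chosen after seeing the data, 44 genes were called, 24 of them among the 405; Lrp2 and Aqp1 in its place gave 358, with 262 shared. Under the marker mean, 4 named genes with negative differences and no call turned positive: Calb1 (0.094), Mme (0.43), Phgdh (0.12) and Kl (0.036). The cause was not tested. Centring each animal on its median gave 394 calls, 83.5% lower in place of 78.3%. The winter cold states against SpD gave 550 calls, 288 with all 31 animals and 128 without K130. The test of sex gave 0 calls by limma under both animal sets (289 and 321 genes at an unadjusted p under 0.05). The settings without a term for experiment or sex, without an intensity trend, with a robust prior, with animal weights, with the filter and without K130 gave 388 to 474 calls. No paired analysis was possible because the labels give no replicate numbers that IBA and SA animals share. Depth is unknown, so the precision of low genes could not be set against it.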

Other observations

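Several lists not described above also held called genes. Among 23 circadian clock genes, Nfil3, a repressor of D-box genes, was called lower (1.97-fold, q = 0.000312, limma), and 4 (17.4%) were lower and 3 (13%) higher at a q under 0.05, near the 12.5% and 10.4% of all genes. Hlf (−1.12 log2 units) and Dbp (0.76), both activators at the same element, had opposite signs. The time of day of sampling was not used here.

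Rbm3, an RNA-binding protein known for its rise in the cold, was 10.12, 10.17, 10.11 and 10.45 in SA and 11.05, 11.40, 11.63, 11.09 and 11.04 in IBA, with K137 at 10.98. Its estimate, 2.08-fold higher (1.55 to 2.81), fell just short of the call (q = 0.00103). Its list, cold-inducible RNA-binding proteins and CLK kinases, had 16 measured genes and 0 calls. At a q under 0.05, 2 were higher (12.5%, against 10.4% of all genes), Rbm3 and Clk2, and 0 lower. The cold-inducible Cirbp differed by 0.29 log2 units without passing (q = 0.0821, limma). Psat1, which makes serine, was called lower (2.20-fold, q = 7.76e-06) and Ndrg1, a gene of the hypoxia list, as well (2.60-fold, q = 0.000392). Of the chaperone Hspa1b and the unfolded protein factor Xbp1, neither passed (−0.05 ± 0.34 and 0.12 ± 0.16 log2 units).

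The remaining lists held few calls. Of 20 cholesterol synthesis genes, 2 were called lower, Ebp and Msmo1 (10%, against 2.46% of all genes). Of 35 cAMP signalling genes, 1 was called lower, Adcy1 (2.86%). Of 27 heat shock chaperone genes, 1 was called lower, the mitochondrial chaperonin Hspd1 (3.7%). Of 31 complement and immune genes, 1 was called lower (3.23%), complement factor I (Cfi, 2.02-fold, q = 0.00052). In glycolysis and pyruvate entry, 0 of 23 genes were called. At a q under 0.05, 7 of them were lower (30.4%, against 12.5% of all genes) and 0 higher. In gluconeogenesis, 0 of 11 were called, with 4 lower (36.4%) and 1 higher (9.09%) at that threshold. Downstream of the proximal tubule, 0 of 40 thick limb and distal salt genes were called. The same held for 0 of 19 collecting duct water, urea and osmolyte genes and 0 of 20 intercalated cell genes. At a q under 0.05, 4 (10%), 3 (15.8%) and 1 (5%) of these were lower, against 12.5% of all genes, and 0 higher. The lists of lipid synthesis (26 genes), the renin-angiotensin system (10) and immediate early genes (27) held 0 calls. At a q under 0.05, the immediate early genes had 5 lower (18.5%), among them Fos, and 1 higher (3.7%), Myc. Fos differed by −0.91 log2 units (q = 0.00344 by limma, with overlapping animals).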
